A study of Mus musculus with 9 samples.

Results

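Genes of DNA replication and mitosis were followed across eosinophils sorted from mouse quadriceps muscle. The set held 55 genes, chosen by symbol from textbook roles in replication and cell division, out of 54146 genes in the deposited table. The choice was made with earlier results of these data known. All 55 were found, and all 55 passed the filter on low counts that left 15886 genes for testing. For description they were sorted by role into 12 genes of replication licensing and the replicative helicase, 9 of DNA synthesis and nucleotide supply, 8 of cyclins, Cdk1 and E2F factors, 9 of mitotic kinases and the spindle checkpoint, 8 of the spindle, 3 of the centromere and 6 of chromosome structure.

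Eosinophils are granulocytes that divide and differentiate in the bone marrow and normally leave it as non-dividing cells under the control of interleukin-5. In a dividing cell, the MCM helicase is loaded on origins in G1, cyclin E and cyclin A with their kinases start and sustain S phase, and cyclin B with Cdk1 drives mitosis. Genes of S phase are classically controlled by E2F factors, and genes of G2 and mitosis by NF-Y and by complexes that bind cell cycle genes homology regions, so their transcripts rise and fall with cycling.

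The 9 libraries were 3 from IL5Tg mice (S7, S8 and S9), which carry an interleukin-5 transgene, 3 from mdx_IL5Tg mice (S1, S2 and S3), which combine that transgene with the dystrophin-deficient mdx background, and 3 from mdx mice (S4, S5 and S6). All came from adult mice. The strain label reads mdx in every sample, IL5Tg included, which conflicts with the titles, and groups were taken from the titles. What drives the transgene, the sex of the mice and any pooling of animals: not given in the sources used here. The sort gate took live CD45+ cells that carried Siglec-F and lacked Gr1, CD11c and class II molecules. The design text calls the 3 libraries of a group biological replicates.

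Expected counts summed to between 26752780 and 58368283 per library. Levels are given as CPM, counts scaled to library size (edgeR's cpm function, library size being the total count times its TMM factor). The transgene Il5 was at 317 to 724 CPM in the 6 transgenic libraries and at 0.265 to 0.402 CPM in mdx, and the eosinophil receptor gene Ccr3 was at 809 to 1441 CPM in all 9. Siglecf, the sort marker, was at 330 to 394 CPM in IL5Tg, 449 to 584 CPM in mdx_IL5Tg and 129 to 177 CPM in mdx. Mitochondrially encoded genes held 0.383% of counts in mdx S5, 2.29% in IL5Tg S7 and 1.28% to 1.7% in the remaining libraries. In such bulk RNA, fewer cells of a type and less RNA per cell cannot be told apart. On GENCODE M21 (GRCm38), 10 members were overlapped by another gene of the table on the same strand and 22 on the opposite strand, and 6 (Pcna, Tyms, Ccnb1, Ccnb2, Kif4 and Stmn1) had a named pseudogene or related copy. Their levels are uncertain to that extent, since the strand setting of the counting is not stated. The 3 comparisons share groups with each other, so none of them is independent of the others.

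Promoters of the members were examined first, since their elements can be compared between roles without using any expression value. RefSeq promoters (GRCm38.p6, 250 bases before to 50 after the annotated start) were matched by symbol for 45 of the 55 members. The letters searched on both strands were CCAAT for the NF-Y box, TTTGAA for the cell cycle genes homology region (CHR), and, for E2F sites, the form TTCCCGC or the form TTGGCGC or the form TTCGCGC or the form TTGCCGC. In the promoters of licensing and synthesis genes, 10 of 18 (55.6%) held an E2F form, 12 of 18 (66.7%) an NF-Y box and 3 of 18 (16.7%) a CHR. In those of mitotic kinases, spindle, centromere and chromosome structure genes, an E2F form was rarer and a CHR more frequent, with an E2F form in 3 of 21 (14.3%), an NF-Y box in 19 of 21 (90.5%) and a CHR in 17 of 21 (81.0%). Of the 27025 promoters of that length in the RefSeq table, 9.69% held an E2F form, 37.9% an NF-Y box and 18.1% a CHR. Among promoters of 9969 genes tested here these shares were 16.6%, 38.3% and 11.8%. Median GC content was 58.0% for the members and 61.0% for those tested genes. A match is a run of letters and not a measured binding site, and no test was made on these shares.

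**Figure D1:**
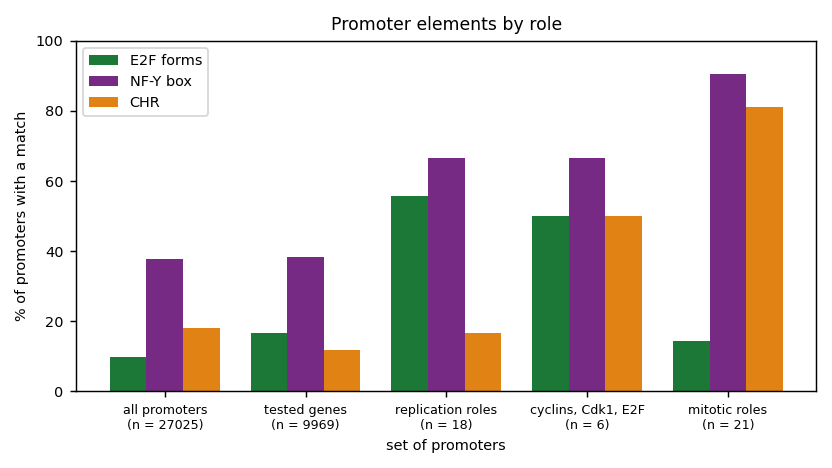
Share of RefSeq promoters (y axis, percent; 300 bases each) that hold an E2F form, an NF-Y box or a CHR, for 5 sets of promoters (x axis, with their number). The replication roles stand above all other sets shown for E2F forms (55.6%), and the mitotic roles for the NF-Y box (90.5%) and the CHR (81.0%).

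Upstream sequence is printed for 4 members that carry these elements and that were called lower in mdx_IL5Tg than in IL5Tg. Mcm5 is shown for the replication pattern, Kif11 for the mitotic one and Top2a for a promoter with many boxes. Ccnb2, from the cyclin role and so outside the mitotic set above, has NF-Y boxes and a CHR. Each run is the 250 bases before the RefSeq start on GRCm38.p6, 5′ to 3′ on the gene's strand, with matches to the searched letters in capitals on either strand. Mcm5 lies on the plus strand (chr8:75109259-75109508), Ccnb2 on the minus strand (chr9:70421555-70421804), Kif11 on the plus strand (chr19:37376132-37376381) and Top2a on the minus strand (chr11:99024190-99024439).
Mcm5: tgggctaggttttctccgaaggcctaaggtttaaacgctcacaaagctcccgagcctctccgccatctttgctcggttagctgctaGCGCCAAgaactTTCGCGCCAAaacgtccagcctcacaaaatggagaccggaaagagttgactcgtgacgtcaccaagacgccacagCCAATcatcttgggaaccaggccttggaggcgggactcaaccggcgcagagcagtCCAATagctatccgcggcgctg
Ccnb2: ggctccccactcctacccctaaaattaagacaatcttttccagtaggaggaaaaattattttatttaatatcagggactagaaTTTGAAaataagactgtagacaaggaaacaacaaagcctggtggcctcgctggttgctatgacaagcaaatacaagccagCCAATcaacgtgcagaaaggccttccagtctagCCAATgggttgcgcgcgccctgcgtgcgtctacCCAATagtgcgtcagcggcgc
Kif11: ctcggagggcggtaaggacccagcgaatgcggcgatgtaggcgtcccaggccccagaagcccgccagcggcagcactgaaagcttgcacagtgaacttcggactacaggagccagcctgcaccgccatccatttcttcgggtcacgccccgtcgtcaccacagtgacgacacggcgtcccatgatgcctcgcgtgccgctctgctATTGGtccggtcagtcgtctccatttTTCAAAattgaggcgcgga
Top2a: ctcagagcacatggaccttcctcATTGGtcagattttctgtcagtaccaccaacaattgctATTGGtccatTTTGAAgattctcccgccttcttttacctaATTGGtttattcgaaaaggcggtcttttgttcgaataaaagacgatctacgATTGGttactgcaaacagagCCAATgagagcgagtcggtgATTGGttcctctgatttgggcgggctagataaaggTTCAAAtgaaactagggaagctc
The Mcm5 run holds 3 E2F matches, beginning 164, 152 and 149 bases before the start, of which the last 2 overlap, and 2 NF-Y boxes at 77 and 22 bases. In Ccnb2, 3 NF-Y boxes begin 87, 54 and 21 bases before the start, with a CHR farther out at 167 bases. Kif11 has 1 NF-Y box at 45 bases and 1 CHR at 19 bases before the start. Top2a has 6 NF-Y boxes and 2 CHRs, the nearer CHR at 23 bases before the start.

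The clearest pattern of the set was its spread within 1 group. In IL5Tg the members' CPM differed by a median of 3.25-fold between the highest and the lowest of the 3 libraries (0.5 CPM added to each value), against 1.36-fold for all tested genes. The same ratio was 1.44 in mdx_IL5Tg, against 1.29 for all tested genes, and 1.43 in mdx, against 1.41. More than 2-fold separated the IL5Tg libraries for 51 of 55 members and 9.23% of tested genes, and more than 4-fold for 14 members and 0.837% of genes. In mdx_IL5Tg 1 member (10.2% of genes) and in mdx 10 members (12.9% of genes) passed 2-fold. These ratios are descriptions of 3 libraries a group, and no test was made on them.

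**Figure D2:**
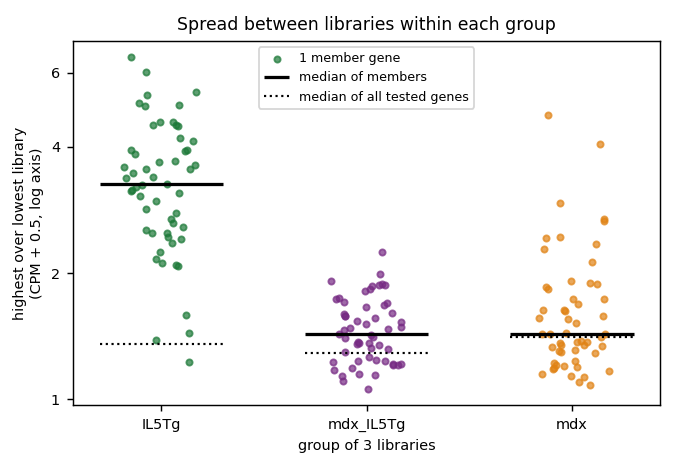
Highest over lowest library within each group (y axis, log scale, CPM + 0.5) for the 55 members (points), with the median of the members (solid line) and of all 15886 tested genes (dotted line). Points of IL5Tg lie around 3.25, while those of the other groups lie around 1.44 and 1.43, close to the medians of all genes.

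The IL5Tg libraries were ordered alike across the roles. S7 was the highest of the 3 for 54 members and S8 the lowest for 53, while 39.5% of all tested genes were highest in S7 and 37.4% lowest in S8. Summed over the members, the level was 1533 CPM in IL5Tg S7, 591 CPM in S8 and 849 CPM in S9. The mdx_IL5Tg libraries S1, S2 and S3 gave sums of 507, 549 and 486 CPM. The mdx libraries S4, S5 and S6 gave 573, 490 and 598 CPM. By these sums, in which abundant members weigh most, IL5Tg S8 lay within the range of the mdx libraries. IL5Tg S7 and S9 lay above all others. By the mean of the members' standardised log2 CPM, S8 (-0.330) lay just below mdx_IL5Tg S2 (-0.320), and S7 (1.91) and S9 (0.655) again lay above all others. Median ratios by role in IL5Tg ran from 2.85 for DNA synthesis to 4.17 for chromosome structure. The largest ratio was that of Aurkb, the kinase of the chromosomal passenger complex, at 6.53, and the smallest that of Cenpa, the centromeric histone H3 variant, at 1.23.

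In the other groups the order of libraries was less uniform. S2 was the highest of mdx_IL5Tg for 38 members, all 8 spindle genes among them, and S3 the lowest for 29, against 28.8% and 41.1% of tested genes. S5 was the lowest of mdx for 36 members, against 47.5% of tested genes. It was the lowest for 8 of 9 genes of mitotic kinases and the checkpoint and for 6 of 6 of chromosome structure, but for 5 of 12 licensing genes. E2f8, a repressive E2F factor, had the widest ratio in mdx at 4.76, and Mki67 the next at 4.07.

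**Figure D3:**
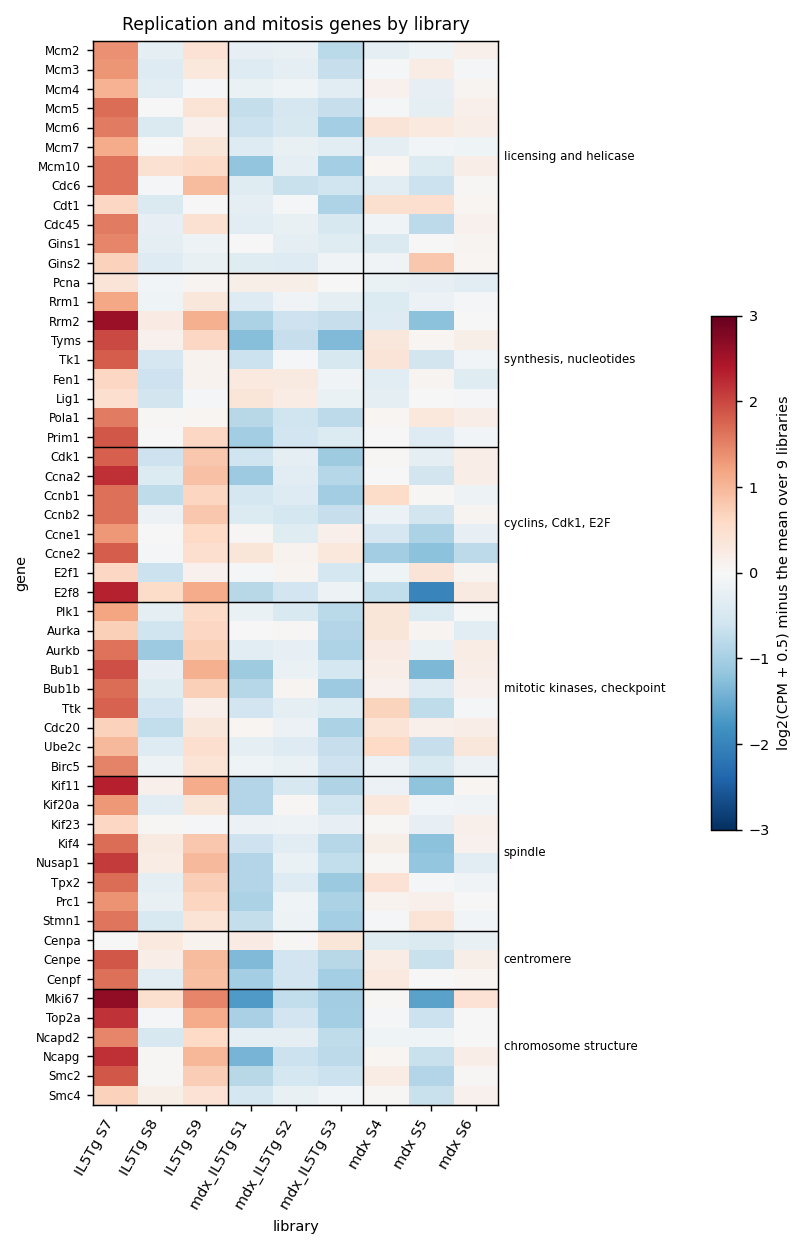
Heat map of log2(CPM + 0.5) minus the mean over the 9 libraries (colour) for the 55 members (rows, grouped by role) in each library (columns). IL5Tg S7 stands above the mean in nearly every row, with Cenpa near the mean in all IL5Tg libraries.

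Between groups, most members were lower in mdx_IL5Tg than in IL5Tg. Of the 55, edgeR's quasi-likelihood test called 20 lower and 0 higher (Benjamini-Hochberg over all tested genes, threshold 0.05), where 2.87% of all tested genes were called lower and 4.35% higher. At an unadjusted p under 0.05 the counts were 42 lower and 0 higher, and DESeq2 called 36 lower and 0 higher (7.91% and 7.6% of tested genes). The share of all tested genes at that unadjusted threshold is not given here or below, so such counts have no background. The median log2 change of the members was -1.53, against -0.050 over all tested genes, and 52 of 55 values lay below 0. For 23 members all 3 libraries of mdx_IL5Tg lay below all 3 of IL5Tg, as for 16.4% of tested genes.

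The calls depended on single libraries, for the members and over all tested genes. Members called lower numbered 1 without IL5Tg S7, 29 without S8 and 6 without S9 (0.338%, 1.05% and 0.53% of tested genes). They numbered 0, 3 and 8 without mdx_IL5Tg S1, S2 and S3 (0.0123%, 0.252% and 5.67% of tested genes). Without S1, 35 members in either direction had an unadjusted p under 0.05. Members called lower were 14, 24 and 12 without mdx S4, S5 and S6 (1.63%, 6.55% and 1.3% of tested genes). Without IL5Tg S7 the median log2 change was -0.70 and 46 of 55 values lay below 0. Without mdx_IL5Tg S1 the median stayed at -1.49, with 51 values below 0. Scaling by library totals only moved the median of all tested genes from -0.050 to -0.27 in this comparison, from 0.13 to 0.46 between mdx and mdx_IL5Tg, and from 0.013 to 0.12 between mdx and IL5Tg. Under that scaling 22 members were called lower (6.18% of tested genes) and all 55 values lay below 0.

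**Figure D4:**
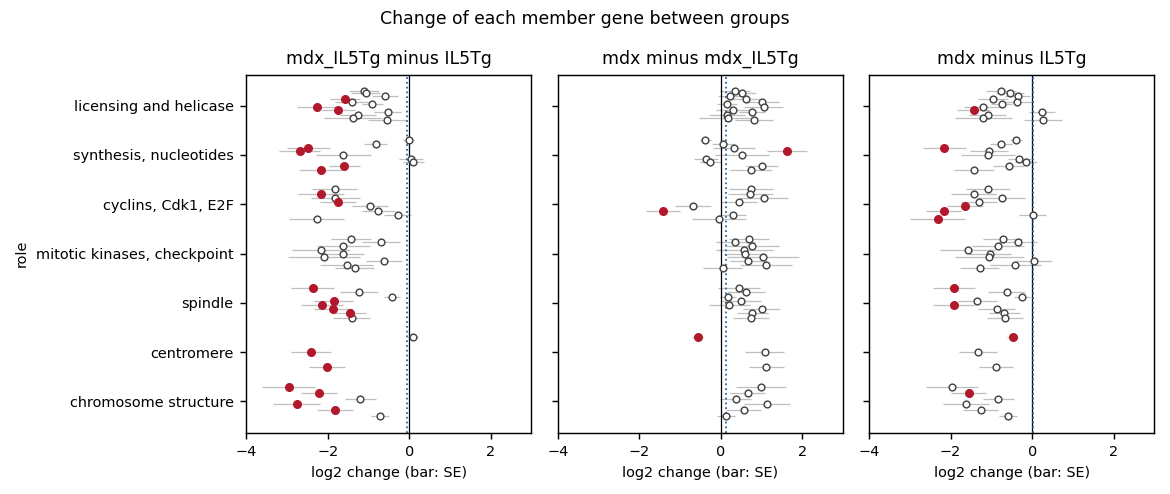
Log2 change of each member (points, with SE bars, x axis) by role (y axis) in the 3 comparisons. Red points passed the edgeR threshold (20, 3 and 9 members from left to right), the dotted line is the median of all tested genes, and in the left panel 52 of 55 points lie below 0.

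Of 12 licensing and helicase genes, 3 were called lower in mdx_IL5Tg against IL5Tg, where 2.87% of tested genes were called lower. All 12 log2 changes lay below 0, 8 of them at an unadjusted p under 0.05, with a median of -1.18. Mcm5, a subunit of the MCM helicase whose promoter is printed above, was at 43.3, 12.9 and 17.7 CPM in IL5Tg S7, S8 and S9, 7.82, 9.04 and 7.94 CPM in S1, S2 and S3 of mdx_IL5Tg, and 12.5, 10.8 and 14.7 CPM in mdx S4, S5 and S6. All mdx_IL5Tg values lay below the other groups. It fell by 1.58 on the log2 scale in mdx_IL5Tg against IL5Tg (SE 0.37, edgeR adjusted p = 0.035). Mcm10, which helps to activate the helicase, was at 6.82, 2.76 and 2.98 CPM in IL5Tg, 0.533, 1.44 and 0.653 CPM in mdx_IL5Tg and 1.95, 1.27 and 2.19 CPM in mdx. It fell by 2.26 (SE 0.48, edgeR adjusted p = 0.028) with no overlap between the first pair of groups. Cdc6, a loader of the helicase, was at 11.6, 3.28 and 7.08 CPM in IL5Tg, 2.55, 1.96 and 2.06 CPM in mdx_IL5Tg and 2.62, 2.01 and 3.47 CPM in mdx. It fell by 1.74 in mdx_IL5Tg (SE 0.41, edgeR adjusted p = 0.035) and by 1.44 in mdx (SE 0.41, edgeR adjusted p = 0.030), both against IL5Tg, where S8 overlapped with mdx S6.

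The other MCM subunits of the set passed the threshold in no comparison. Mcm6 was at 52.3, 12.9 and 19.3 CPM in IL5Tg, 11.1, 12.5 and 8.38 CPM in mdx_IL5Tg and 23.1, 21.4 and 20.3 CPM in mdx. Its mdx values lay above IL5Tg S8 and S9 and below S7. Mcm7 was at 37.6, 17.1 and 22.3 CPM, 13.2, 14.6 and 13.5 CPM, and 13.9, 16.1 and 15.7 CPM in the same order of libraries, and Mcm3 at 41.1, 12.3 and 20.3 CPM, 12.2, 13.1 and 9.79 CPM, and 15.8, 19.1 and 15.8 CPM. Mcm4 was at 35.0, 13.3 and 15.9 CPM in IL5Tg and at 13.1 to 18.3 CPM in the 6 other libraries, so S7 alone stood apart. Mcm2, Cdt1, Cdc45, Gins1 and Gins2 passed the threshold in no comparison.

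DNA synthesis and nucleotide supply held 4 genes called lower in mdx_IL5Tg against IL5Tg (2.87% of tested genes). Its other 5 genes passed the threshold in no comparison. Of the 9 changes between these groups 7 lay below 0, 6 of them at an unadjusted p under 0.05. Rrm2, the regulated subunit of ribonucleotide reductase, was at 61.2, 11.8 and 21.2 CPM in IL5Tg, 4.88, 6.17 and 5.90 CPM in mdx_IL5Tg and 7.35, 3.88 and 9.79 CPM in mdx. Every IL5Tg value lay above every other. It fell by 2.48 in mdx_IL5Tg (SE 0.53, edgeR adjusted p = 0.029) and by 2.16 in mdx (SE 0.53, edgeR adjusted p = 0.016), each against IL5Tg. Tyms, thymidylate synthase, was at 12.1, 2.98 and 4.40 CPM in IL5Tg, 0.810, 1.46 and 0.757 CPM in mdx_IL5Tg and 3.50, 2.78 and 3.09 CPM in mdx. It was lowest in mdx_IL5Tg with no overlap with either group, and fell by 2.69 against IL5Tg (SE 0.50, edgeR adjusted p = 0.018), the only one of the 20 calls that held without IL5Tg S7 (edgeR adjusted p = 0.047, the other alternatives giving 2.67e-06 with DESeq2 to 0.11 without mdx_IL5Tg S1). Pola1, the catalytic subunit of polymerase alpha, was at 19.2, 6.42 and 6.52 CPM in IL5Tg, 3.32, 3.98 and 3.39 CPM in mdx_IL5Tg and 6.51, 7.90 and 7.21 CPM in mdx, and fell by 1.59 (SE 0.39, edgeR adjusted p = 0.037). Prim1, the primase subunit that makes the RNA primer, was at 7.33, 1.69 and 2.83 CPM, 0.553, 0.957 and 1.12 CPM, and 1.68, 1.17 and 1.54 CPM, and fell by 2.18 (SE 0.52, edgeR adjusted p = 0.036). For both, mdx_IL5Tg lay below IL5Tg without overlap.

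Pcna, the sliding clamp of DNA polymerases, was the most abundant member per kilobase of exon in all groups, with means of 51.2, 50.6 and 39.0 CPM per kilobase in IL5Tg, mdx_IL5Tg and mdx. Its libraries were at 145, 105 and 118 CPM, 127, 126 and 111 CPM, and 96.8, 94.3 and 89.5 CPM in that order of groups. IL5Tg and mdx_IL5Tg overlapped, and all 3 mdx libraries lay below both, but neither comparison of mdx passed the threshold (edgeR adjusted p = 0.075 and 0.065). Fen1, the flap nuclease, was at 25.1, 10.3 and 17.4 CPM, 19.9, 19.5 and 15.0 CPM, and 12.8, 17.2 and 12.5 CPM, and Lig1, the ligase that joins Okazaki fragments, at 23.4, 10.9 and 15.8 CPM, 20.8, 19.1 and 13.9 CPM, and 13.4, 16 and 15.9 CPM. All 3 groups overlapped for both genes. Rrm1, the large subunit of ribonucleotide reductase, was at 60.4, 24.5 and 33.9 CPM in IL5Tg and between 20.1 and 26 CPM in the 6 other libraries.

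Of the genes of cyclins, Cdk1 and E2F factors, 2 of 8 were called lower in mdx_IL5Tg against IL5Tg (2.87% of tested genes). All 8 changes lay below 0, 6 of them at an unadjusted p under 0.05. Ccna2, cyclin A2 of S and G2 phase, was at 21.9, 3.21 and 8.54 CPM in IL5Tg, 1.82, 3.45 and 2.25 CPM in mdx_IL5Tg and 4.40, 2.85 and 5.16 CPM in mdx, and fell by 2.17 in mdx_IL5Tg against IL5Tg (SE 0.57, edgeR adjusted p = 0.046). IL5Tg S8 lay below mdx_IL5Tg S2, so those groups overlapped. Ccnb2, a mitotic cyclin, was at 8.87, 2.14 and 4.77 CPM, 1.74, 1.59 and 1.36 CPM, and 2.14, 1.54 and 2.68 CPM, and fell by 1.75 (SE 0.45, edgeR adjusted p = 0.044) with no overlap. Ccnb1 and Cdk1, the mitotic kinase, passed in no comparison.

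In mdx against IL5Tg, 3 genes of this role were called lower (8.96% of tested genes), and 7 of 8 changes lay below 0. Ccne2, a cyclin E, was at 23.0, 5.91 and 8.95 CPM in IL5Tg, 8.0, 6.65 and 7.70 CPM in mdx_IL5Tg and 2.72, 2.31 and 3.35 CPM in mdx. All mdx libraries lay below all 6 transgenic ones, and IL5Tg and mdx_IL5Tg overlapped. In mdx it fell by 1.41 against mdx_IL5Tg (SE 0.42, edgeR adjusted p = 0.037) and by 2.17 against IL5Tg (SE 0.43, edgeR adjusted p = 0.0060). Ccne1, the other cyclin E, was at 4.80, 1.62 and 2.76 CPM, 1.68, 1.16 and 1.88 CPM, and 1.00, 0.602 and 1.3 CPM, and fell by 1.64 in mdx against IL5Tg (SE 0.45, edgeR adjusted p = 0.025). E2f8 was at 15.7, 4.32 and 6.56 CPM, 1.34, 1.71 and 2.45 CPM, and 1.47, 0.335 and 3.47 CPM. All IL5Tg values lay above the rest, and it fell by 2.32 in mdx against IL5Tg (SE 0.68, edgeR adjusted p = 0.034). E2f1, an activating E2F factor, was at 8.06, 3.05 and 5.52 CPM in IL5Tg, 4.92, 5.36 and 3.37 CPM in mdx_IL5Tg and 4.61, 6.79 and 5.38 CPM in mdx, with all groups overlapping.

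None of the 9 genes of mitotic kinases and the spindle checkpoint passed edgeR's adjusted threshold in any comparison. In mdx_IL5Tg against IL5Tg 7 of them were lower at an unadjusted p under 0.05. DESeq2 called 4 lower there (7.91% of tested genes), and the median log2 change of the 9 was -1.53. In mdx against mdx_IL5Tg 0 were at an unadjusted p under 0.05, and DESeq2 called 0 (14.3% of tested genes higher and 13.4% lower). In mdx against IL5Tg both counts were 2, all lower (13.9% of tested genes in DESeq2). Bub1b, a checkpoint protein that delays anaphase, was at 12.4, 2.63 and 6.04 CPM in IL5Tg, 1.70, 3.73 and 1.38 CPM in mdx_IL5Tg and 3.85, 2.54 and 3.86 CPM in mdx. Bub1, its partner kinase at the kinetochore, was at 8.03, 1.36 and 4.14 CPM, 0.553, 1.44 and 1.04 CPM, and 2.03, 0.368 and 2.05 CPM. For both, IL5Tg S8 lay within the range of mdx_IL5Tg. Cdc20, the activator of the anaphase-promoting complex, was at 4.26, 1.27 and 3.21 CPM, 2.53, 2.09 and 1.02 CPM, and 3.37, 2.78 and 2.85 CPM. Aurka, the centrosomal Aurora kinase, was at 3.65, 1.17 and 3.39 CPM, 2.03, 2.12 and 0.888 CPM, and 2.79, 2.17 and 1.52 CPM. All groups overlapped for Aurka, while for Cdc20 all mdx values lay above those of mdx_IL5Tg and IL5Tg overlapped with both. Counts in this role were the lowest of the set, with Ttk, the Mps1 kinase, at 8 counts in IL5Tg S8, 5 in mdx S5 and 105 in IL5Tg S7.

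Of 8 spindle genes, 5 were called lower in mdx_IL5Tg against IL5Tg (2.87% of tested genes). All 8 changes lay below 0, 7 of them at an unadjusted p under 0.05. Kif11, the motor that pushes spindle poles apart, was at 31.8, 6.72 and 13.5 CPM in IL5Tg, 2.98, 4.15 and 2.95 CPM in mdx_IL5Tg and 5.17, 2.28 and 6.27 CPM in mdx. All IL5Tg values lay above all others, and it fell by 2.37 in mdx_IL5Tg (SE 0.53, edgeR adjusted p = 0.030) and by 1.92 in mdx (SE 0.52, edgeR adjusted p = 0.025). Nusap1, a microtubule-bundling protein, was at 15.4, 3.8 and 6.75 CPM, 1.5, 2.69 and 1.70 CPM, and 3.25, 1.14 and 2.39 CPM, and fell by 2.14 in mdx_IL5Tg (SE 0.52, edgeR adjusted p = 0.038) and by 1.92 in mdx (SE 0.52, edgeR adjusted p = 0.025), with no overlap with IL5Tg. Tpx2, the activator of Aurka on the spindle, was at 14.9, 3.44 and 7.53 CPM, 2.11, 3.20 and 1.72 CPM, and 5.97, 4.15 and 4.0 CPM, and fell by 1.88 in mdx_IL5Tg (SE 0.46, edgeR adjusted p = 0.039). Kif4, a chromokinesin, and Prc1, its partner at the central spindle, fell by 1.85 and 1.45 (edgeR adjusted p = 0.045 and 0.047). Kif4 was at 11.8, 4.15 and 6.26 CPM in IL5Tg and 2.02, 2.52 and 1.62 CPM in mdx_IL5Tg, and at 3.85, 1.14 and 3.69 CPM in mdx. Prc1 was at 17.7, 5.61 and 10.6 CPM, 3.20, 5.97 and 3.21 CPM, and 7.18, 7.43 and 6.51 CPM, and here IL5Tg S8 lay below mdx_IL5Tg S2. Kif23, a motor of cytokinesis, was among the steadiest members, at 33, 22 and 20.6 CPM, 19.0, 19.2 and 18.1 CPM, and 21.9, 18 and 23.8 CPM. Stmn1, which destabilises microtubules, was at 32.5, 7.37 and 13.9 CPM, 6.10, 9.27 and 4.88 CPM, and 10.2, 14 and 9.81 CPM, and passed in no comparison.

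The 3 centromere genes did not move together. Cenpe, a kinetochore motor, was at 11.2, 3.21 and 5.74 CPM in IL5Tg, 0.790, 1.69 and 1.33 CPM in mdx_IL5Tg and 3.29, 1.54 and 3.13 CPM in mdx, and fell by 2.41 in mdx_IL5Tg against IL5Tg (SE 0.49, edgeR adjusted p = 0.024). Cenpf, a kinetochore protein of G2 and mitosis, was at 15.2, 3.50 and 8.87 CPM, 1.98, 2.87 and 1.98 CPM, and 5.65, 4.49 and 4.70 CPM, and fell by 2.02 (SE 0.44, edgeR adjusted p = 0.029). Neither overlapped between these groups. Cenpa ran differently, at 68.0, 83.8 and 73.0 CPM in IL5Tg, 81.3, 69.5 and 87.8 CPM in mdx_IL5Tg and 52.8, 50.3 and 58.8 CPM in mdx. It was the only member that was lowest in IL5Tg S7, and all its mdx values lay below all 6 transgenic ones. In mdx it fell by 0.56 against mdx_IL5Tg (SE 0.14, edgeR adjusted p = 0.016) and by 0.47 against IL5Tg (SE 0.14, edgeR adjusted p = 0.031). With library totals only, the change against mdx_IL5Tg was -0.23 (edgeR adjusted p = 0.20, against 0.0019 with DESeq2 to 0.037 without mdx_IL5Tg S1 over the other alternatives).

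Of 6 genes of chromosome structure, 4 were called lower in mdx_IL5Tg against IL5Tg (2.87% of tested genes). All 6 changes lay below 0 and had an unadjusted p under 0.05, and the largest fall of the set was among them. Mki67, the nuclear antigen of cycling cells that coats mitotic chromosomes, was at 202, 44.3 and 87.8 CPM in IL5Tg, 9.44, 18.6 and 15.0 CPM in mdx_IL5Tg and 32.4, 10.1 and 42.7 CPM in mdx. It fell by 2.96 in mdx_IL5Tg against IL5Tg (SE 0.65, edgeR adjusted p = 0.036), and each IL5Tg library lay above every other library, S8 by the least. Top2a, the topoisomerase that untangles sister chromatids, was at 113, 24.3 and 54.7 CPM, 12.5, 16.5 and 12 CPM, and 24.1, 15.9 and 25.1 CPM. It fell by 2.22 in mdx_IL5Tg (SE 0.44, edgeR adjusted p = 0.023) and by 1.56 in mdx (SE 0.43, edgeR adjusted p = 0.028), with mdx S6 just above IL5Tg S8. Ncapg, a condensin I subunit, was at 12, 2.27 and 4.96 CPM, 0.533, 1.23 and 1.07 CPM, and 2.35, 1.21 and 2.63 CPM, and fell by 2.77 in mdx_IL5Tg (SE 0.59, edgeR adjusted p = 0.028). Smc2, a core subunit of both condensins, was at 34.2, 9.28 and 15.4 CPM, 4.86, 6.12 and 5.59 CPM, and 10.6, 4.72 and 9.21 CPM, and fell by 1.83 (SE 0.44, edgeR adjusted p = 0.036). Both were lower in mdx_IL5Tg without overlap. Smc4, its partner, was at 80.1, 55.4 and 66.5 CPM, 33.9, 42.3 and 46.7 CPM, and 50.3, 30.8 and 53.6 CPM, and Ncapd2 at 39.8, 9.96 and 21.7 CPM, 11.5, 11.5 and 8.09 CPM, and 13.0, 12.9 and 14.3 CPM. Smc4 did not overlap between IL5Tg and either other group but missed the threshold (edgeR adjusted p = 0.071 and 0.082).

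In mdx against mdx_IL5Tg few members were called. Tyms was called higher, with a rise of 1.63 on the log2 scale (SE 0.49, edgeR adjusted p = 0.038), and Ccne2 and Cenpa were called lower, where 11.5% of tested genes were called higher and 10.1% lower. The share of members called thus lay below the background in both directions. Their median log2 change was 0.57, against 0.13 over all tested genes, and 48 of 55 values lay above 0. In 16 members all mdx libraries lay above all mdx_IL5Tg libraries (23.2% of tested genes), and in 3, Pcna, Ccne2 and Cenpa, below (18.8%). Ncapg, next in size, stood at 1.14 (SE 0.57, edgeR adjusted p = 0.18). Members called higher numbered 0 without IL5Tg S9, mdx_IL5Tg S1, mdx_IL5Tg S3, mdx S4 or mdx S6. They numbered 2 after removal of IL5Tg S8 or of mdx_IL5Tg S2, and 3 after removal of IL5Tg S7. Over all tested genes, 2.63% to 10.5% were called higher in these fits. Members called lower numbered 1 without mdx_IL5Tg S1, mdx S4 or mdx S5 (6.7%, 7.97% and 12.2% of tested genes). With library totals only, 5 members were called higher and 0 lower (25.2% and 4.7% of tested genes).

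In mdx against IL5Tg 9 members were called lower and 0 higher in edgeR, where 8.96% of tested genes were called lower and 11.8% higher. At an unadjusted p under 0.05 the counts were 27 and 0, and DESeq2 called 26 lower and 0 higher (13.9% and 14% of tested genes). The 9 were Ccne2, Rrm2, Ccne1, Kif11, Nusap1, Top2a, Cdc6, Cenpa and E2f8. The median log2 change was -0.89, against 0.013 over all tested genes, and 51 of 55 values lay below 0. For 15 members mdx lay wholly below IL5Tg, as for 19.7% of tested genes. Lower calls numbered 3, 27 and 6 after removal of IL5Tg S7, S8 and S9 in turn (8.33%, 6.98% and 6.1% of tested genes). They numbered 16 without mdx_IL5Tg S3, 2 without mdx S4 and 1, Ccne2, without mdx S5 (11.9%, 6.66% and 7.43%). Without IL5Tg S7 the median was -0.32, with 40 of 55 values below 0.

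Further genes of the same processes, none of them members, were placed in 4 lists. Of 40 other replication genes edgeR called 8 lower and 0 higher in mdx_IL5Tg against IL5Tg (2.87% and 4.35% of tested genes). Their median log2 change was -0.69, and 0 were higher at an unadjusted p under 0.05 or in DESeq2. Dnmt1, the maintenance DNA methyltransferase, fell by 0.78, the chromatin ATPase gene Atad2 by 1.5 and the histone chaperone gene Asf1b by 2.79 (edgeR adjusted p = 0.023, 0.018 and 0.015). Slbp, the histone mRNA-binding protein, was at 64.3 to 77.7 CPM in IL5Tg, 72.0 to 81.2 CPM in mdx_IL5Tg and 50.1 to 59.1 CPM in mdx. In mdx against mdx_IL5Tg 1 was called higher, Timeless of the replication fork (log2 1.26, edgeR adjusted p = 0.031). Slbp alone was called lower (by 0.53, edgeR adjusted p = 0.015). Of all tested genes 11.5% were called higher and 10.1% lower there. Against IL5Tg, mdx had 1 called higher and 8 lower (11.8% and 8.96% of tested genes).

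Of 56 other tested mitosis genes, 15 were called lower and 0 higher in mdx_IL5Tg against IL5Tg (2.87% and 4.35% of tested genes). The median was -1.50, led by Kif15, a spindle motor, and Fbxo5, which inhibits the anaphase-promoting complex. Those 2 fell by 2.62 and 2.76 (edgeR adjusted p = 0.016 for each). The most abundant of the 56, Ckap5, a microtubule polymerase, ranged only from 69.9 to 92.2 CPM over the 9 libraries. Ncaph2 of condensin II ranged from 49.4 to 92.2 CPM. In mdx against mdx_IL5Tg edgeR called 2 lower and 0 higher, where 10.1% and 11.5% of tested genes were called. The 2 were Pttg1, the securin, and Cdc25b, a phosphatase that activates Cdk1. They fell by 0.88 and 0.87 (edgeR adjusted p = 0.024 and 0.028). At an unadjusted p under 0.05, 5 were higher, and DESeq2 called 0 higher. In mdx against IL5Tg 12 were called lower and 0 higher (8.96% and 11.8% of tested genes). Ncapg2 stood at -1.19 and Fbxo5 at -2.31 (edgeR adjusted p = 0.0018 and 0.0086). In both comparisons with IL5Tg, 0 of these genes were higher at an unadjusted p under 0.05 or in DESeq2.

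Of 18 checkpoint and repair genes of S phase, 7 were called lower in mdx_IL5Tg against IL5Tg (2.87% of tested genes). All 18 changes lay below 0, 13 of them at an unadjusted p under 0.05 (median -1.51). Brca1, of homologous recombination, was at 20.2, 8.11 and 12.9 CPM in IL5Tg, 2.82, 3.83 and 2.87 CPM in mdx_IL5Tg and 4.77, 3.75 and 5.28 CPM in mdx, and fell by 2.11 (SE 0.32, edgeR adjusted p = 0.0077). All IL5Tg values lay above all others, and the other groups overlapped. Rad54l, a DNA repair ATPase, fell by 2.81 (SE 0.48, edgeR adjusted p = 0.013). Blm, a helicase of recombination, was at 37.1, 32.1 and 30.2 CPM, 23.9, 24.1 and 29.6 CPM, and 13.4, 6.46 and 12.6 CPM, and fell in mdx by 1.25 against mdx_IL5Tg and by 1.61 against IL5Tg (edgeR adjusted p = 0.0063 and 0.0016). Wee1, the kinase that holds Cdk1 inactive, was higher in mdx than in mdx_IL5Tg by 1.2 (SE 0.31, edgeR adjusted p = 0.022). Atr, the replication stress kinase, was at 13.3 to 26.6 CPM over all libraries.

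Regulators of G1 and of the exit from the cycle formed the last list. In IL5Tg, 19 of the 27 were highest in S7 and 20 lowest in S8. Of the 27, edgeR called 4 lower and 0 higher in mdx_IL5Tg against IL5Tg (2.87% and 4.35% of tested genes). At an unadjusted p under 0.05 the counts were 7 and 5, and in DESeq2 5 and 1 (7.91% and 7.6% of tested genes). The median log2 change of the list was -0.14. Foxm1 and Mybl2, activators of mitotic genes, were the first by p-value, with falls of 1.56 and 2.05 (edgeR adjusted p = 0.022 and 0.030). In mdx against mdx_IL5Tg 3 rose and 6 fell, where 11.5% of tested genes were called higher and 10.1% lower. Ccnd3, cyclin D3, was at 138, 124 and 145 CPM in IL5Tg, 134, 123 and 140 CPM in mdx_IL5Tg and 67.4, 76.1 and 71.1 CPM in mdx, and fell in mdx by 0.89 against mdx_IL5Tg (SE 0.12, edgeR adjusted p = 0.00082). Ccnd1, cyclin D1, was at 8.74, 5.97 and 8.50 CPM, 7.49, 12.8 and 6.03 CPM, and 27.4, 16 and 22.6 CPM, and was higher in mdx by 1.33 (SE 0.30, edgeR adjusted p = 0.012). Rbl2, the p130 pocket protein of resting cells, was higher there by 0.60 (SE 0.14, edgeR adjusted p = 0.012). In mdx the most abundant of the list, Cdk6 and Rbbp4, fell by 0.51 and 0.47 against mdx_IL5Tg (edgeR adjusted p = 0.034 and 0.021). Against IL5Tg, 4 were higher and 3 lower in mdx, where 11.8% and 8.96% of tested genes were called.

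Markers of immature granulocytes and granule genes had the same high library as the members. All 16 genes of the granulocyte precursor list were highest in IL5Tg S7 of the 3 IL5Tg libraries, and their summed level was 930, 494 and 496 CPM in S7, S8 and S9, 567 to 711 CPM in mdx_IL5Tg and 432 to 540 CPM in mdx. Those with the highest levels were Cd63, Cd34 and Cebpe, at 377, 49.8 and 52.4 CPM in S7. In mdx_IL5Tg against IL5Tg, 12 of the 16 log2 changes lay below 0 and 4 above. There edgeR called 2 of the 16 lower and 0 higher (2.87% and 4.35% of tested genes). Mpo, myeloperoxidase, chosen after its values were seen like Elane, Epx and S100a9 here, was at 96.3, 13.5 and 8.54 CPM in IL5Tg, 5.16, 7.70 and 7.05 CPM in mdx_IL5Tg and 1.13, 1.04 and 28.2 CPM in mdx. Elane, neutrophil elastase, was at 30.5, 2.56 and 1.49 CPM, 0.968, 1.94 and 2.04 CPM, and 0.0209, 0 and 7.57 CPM. So IL5Tg S7 and, within mdx, S6 were high for both. Unlike the members, neither gene was higher in IL5Tg S9 than in S8.

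Of 12 eosinophil genes 9 were highest in IL5Tg S7 and 9 lowest in S8, while 3 were highest in S9 and 3 lowest in S7. In mdx_IL5Tg against IL5Tg edgeR called 0 higher and 0 lower. DESeq2 called 5 higher and 4 lower (7.6% and 7.91% of tested genes). Prg2, a major granule protein, was at 6997, 1611 and 2690 CPM in IL5Tg, 651, 689 and 514 CPM in mdx_IL5Tg and 79.3, 96.1 and 503 CPM in mdx. Epx, eosinophil peroxidase, was at 2020, 416 and 1029 CPM, 151, 191 and 139 CPM, and 16.1, 7.13 and 151 CPM. Both had the order S7, S9, S8 within IL5Tg, as most members did. Siglecf and Ccr3 were lowest in S7, with Ccr3 at 827, 1011 and 1064 CPM in S7, S8 and S9. The summed level of the 12 eosinophil genes was 18742, 8594 and 11403 CPM in IL5Tg. It was 8804 to 9658 CPM in mdx_IL5Tg and 3922 to 4628 CPM in mdx. Of 10 neutrophil genes 8 were highest and 2 lowest of the IL5Tg libraries in S7. S100a9 was at 143, 30.3 and 17.3 CPM there and Ngp at 861, 337 and 368 CPM in S7, S8 and S9. The neutrophil sums were 1595, 803 and 910 CPM in IL5Tg, 1119 to 1591 CPM in mdx_IL5Tg and 1110 to 1829 CPM in mdx. In mdx_IL5Tg against IL5Tg, edgeR called 3 neutrophil genes higher and 0 lower (4.35% and 2.87% of tested genes). The part of these cells or transcripts in the members' levels was not tested.

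**Figure D5:**
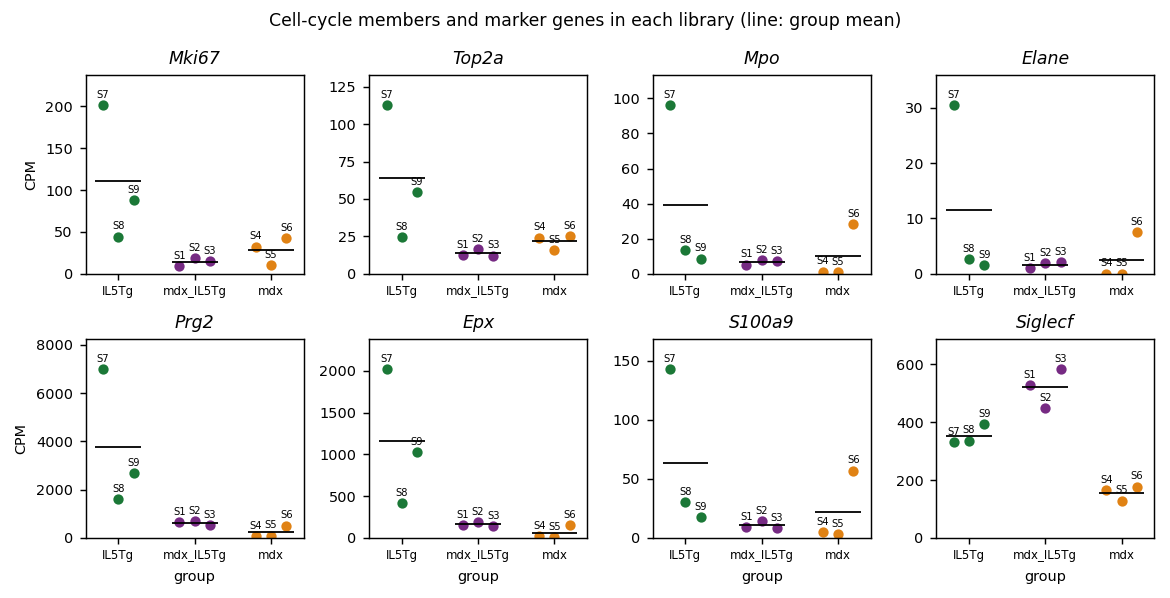
CPM (y axis, from 0) of 2 members (Mki67, Top2a) and of 6 marker genes in each library (points, labelled by S number) by group (x axis), with the group mean as a line. IL5Tg S7 is the highest library for all but Siglecf, and mdx S6 is the highest mdx library for all 8 genes.

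Markers of other cells differed in their order within IL5Tg. S7 was the highest library there for 5 of 5 tested B and plasma cell genes and 7 of 8 dendritic genes. It was the highest for 6 of 7 erythroid, 6 of 7 mast cell and basophil, and 9 of 15 macrophage genes. For muscle and for fibroblast and endothelial genes the counts were 3 of 10 each, and for T and NK cell genes 2 of 5. Of all tested genes 39.5% were highest in S7. The summed level of 15 monocyte and macrophage genes was 348 to 531 CPM in IL5Tg, 425 to 660 CPM in mdx_IL5Tg and 1021 to 1896 CPM in mdx, with Csf1r, Lyz2 and Apoe the most abundant. Sums of 10 fibroblast and endothelial genes, led by Col1a1, Col1a2 and Col3a1, were 1395 to 2796, 999.7 to 3496 and 4949 to 11187 CPM, and sums of 10 muscle genes, led by Des, Acta1 and Myog, were 7.42 to 10.1, 16.7 to 27.5 and 50.2 to 83.2 CPM. Dendritic and class II genes, led by Itgax, Cd74 and H2-Eb1, summed to 62.7 to 67.8, 221 to 382 and 294 to 384 CPM. Of 11 T and NK cell genes, led by Il7r, Cd3d and Nkg7, the sums stayed between 4.54 and 22.8 CPM, with Ncr1 at 0 in 7 libraries. Of 9 B and plasma cell genes, led by Ighm, Sdc1 and Igkc, sums lay between 24.7 and 53.4 CPM, the highest in IL5Tg S7. Those of 8 mast cell and basophil genes, led by Kit, Cpa3 and Cma1, lay between 14.8 and 49.9 CPM. Erythroid genes, led by Hbb-bs, Gata1 and Hba-a2, summed to 137 to 369 CPM, with Klf1 at 0 in 5 libraries. Within IL5Tg the monocyte and macrophage sum was 531, 369 and 348 CPM in S7, S8 and S9. The mast cell and basophil sum was 29.3, 20.2 and 14.8 CPM, and the fibroblast and endothelial sum 2010, 1395 and 2796 CPM. The part of any of these lists in the members' differences was not tested.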

How the data were processed

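Reads from 9 libraries had been trimmed, aligned and counted with cutadapt 2.10, STAR 2.5.3 and RSEM 1.3.0 against mm10, per the submitters' processing notes, and the authors deposited expected counts per gene. Annotation and strand setting are not stated there. Of the values 6.03% were not whole, and all were rounded. Genes were tested in R 4.3.3 with edgeR 4.0.16 (filterByExpr with a minimum count of 10, TMM factors of 0.867 to 1.15, robust quasi-likelihood fit over all 9 libraries with 6 residual degrees of freedom, Benjamini-Hochberg adjustment over 15886 genes at 0.05). The code was tested on simulated data. The SE of a log2 change is the change divided by the square root of its F value. Members and lists were chosen with earlier results of these data known.

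Library values are printed for the 4 members of highest mean CPM in each role (3 where a role has 3), for members past the threshold and for the 3 largest changes per comparison. Other cell cycle lists give the 2 most abundant genes and up to 2 called genes per comparison with the smallest p, and marker lists the 3 most abundant. Alternatives were DESeq2 1.42.0, voom and voom with quality weights (limma 3.58.1), scaling by RLE factors or by library totals alone, no filter or one of 50 counts in 3 libraries, a fit of only the groups compared, and fits that left out each library. For the spread, a pseudocount of 0.1 CPM replaced 0.5.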

Additional observations from a re-analysis of the deposited data

How the results depend on the processing

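The 20 members called lower in mdx_IL5Tg against IL5Tg became 36 with DESeq2, 13 with limma voom and 31 with voom quality weights, and 0 to 29 with a library left out. Over all genes the 456 lower calls became 1257 with DESeq2, 2197 with quality weights, 981 with library totals only, 785 with no filter and 693 with only the groups compared, and 2 to 1084 with a library left out. The 691 higher calls became 1207, 2100, 311 and 1123 with DESeq2, quality weights, library totals and only the groups compared, and 108 to 1557 with a library left out.

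In mdx against mdx_IL5Tg the 2 lower members became 4 with quality weights and 0 with library totals only, and 1 to 3 with a library left out. The 1 higher member became 3 with DESeq2, 8 with quality weights, 5 with library totals, 3 with no filter and 4 with only the groups compared, and 0 to 3 with a library left out. Lower genes (1603) became 2958 with quality weights and 746 with library totals, and higher genes (1830) became 3981, 4007 and, with only the groups compared, 1188. With a library left out they were 1092 to 2155 lower and 429 to 2035 higher.

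In mdx against IL5Tg the 9 lower members became 26 with DESeq2 and 15 with RLE factors, and 1 to 27 with a library left out. Lower genes (1424) became 2207 with DESeq2 and 2474 with quality weights, and higher genes (1874) became 3030 with quality weights. With a library left out they were 1013 to 1937 lower and 948 to 1900 higher. No member was called higher in either comparison with IL5Tg under any alternative run. The median ratio within IL5Tg was 3.51 with library totals only and 3.64 with a pseudocount of 0.1 CPM. The causes of these shifts were not tested. No paired analysis was possible because the table's columns carry S numbers that could not be tied to the replicate numbers of the titles. With 3 libraries a group, and as few as 5 counts for a member in a library, modest differences in the rarer members could not be resolved.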

Other observations

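Genes outside the cell cycle lists were ranked by how closely their log2 CPM followed the members' mean standardised level over the 9 libraries, among genes at or above the median level. These correlations are descriptions over 9 libraries that share their depth and groups, with IL5Tg S7 far from the rest, and no test was made. The 10 closest were led by Plin3, a lipid droplet protein (r = 0.976), and held 4 replication-dependent histone genes, Hist1h2ab, Hist2h3c2, Hist1h2ap and Hist1h1b (r = 0.927 to 0.963). Hist1h1b, a linker histone, was at 48.9, 6.10 and 17.9 CPM in IL5Tg S7, S8 and S9, 5.21, 4.51 and 4.91 CPM in S1, S2 and S3 of mdx_IL5Tg, and 3.94, 4.72 and 6.17 CPM in mdx S4, S5 and S6. IL5Tg S7 and S9 lay above all others, and S8 lay between mdx S5 and S6. Psat1, an enzyme of serine synthesis, was at 20.3, 8.21 and 11.3 CPM, 6.60, 7.43 and 6.06 CPM, and 9.80, 7.80 and 6.99 CPM in that order (r = 0.962). Plk4, the kinase of centriole duplication, was at 21.1, 9.15 and 11.4 CPM, 5.33, 5.34 and 6.0 CPM, and 9.17, 6.16 and 8.58 CPM (r = 0.937). The others of the 10 were Zfp367, Pop1 and Pja2.

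At the other end were Tmco4 and Brd1, a reader of acetylated histones (r = -0.960 for each). Brd1 was at 88.4, 137 and 122 CPM in IL5Tg, 136, 132 and 146 CPM in mdx_IL5Tg and 122, 128 and 128 CPM in mdx. Polr2a, the largest subunit of RNA polymerase II, was at 198, 263 and 251 CPM, 336, 307 and 337 CPM, and 281, 278 and 271 CPM (r = -0.927). IL5Tg S7 was the lowest library for both. Map2k7, Eif4e2, Tmem127, Ago4, Trpc4ap, Adam9 and Brap completed the 10. Among the members themselves, the correlation with the mean of all members ran from -0.168 for Cenpa and 0.447 for Gins2 to 0.979 for Top2a and 0.984 for Ccna2.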
